A study of Saccharomyces cerevisiae with 16 samples.

Results

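Budding yeast cells with normal histone H3 were compared with YFH1 on and with YFH1 off, in 4 libraries of polyadenylated RNA for each state. These are 8 of the 16 libraries of the series, chosen by their titles: the WT libraries with replicate numbers 2 to 5, whose genotype label is wild type, and the YFH1-off libraries with the same numbers, whose genotype label is p(GAL1)-YFH1. The other 8 libraries carry the histone H3 substitution named in the series title and entered only the shared estimate of the spread. The YFH1-off strain has YFH1 behind the GAL1 promoter, which galactose activates and glucose represses, so the effect of losing the message cannot be told apart from that of how the strain was made. Per the labels' protocols, YFH1-off cells growing on YPG were put into SC medium, kept there for 36 h at 30 °C with dilution every 12 h, and then grown for another 8 h. That protocol is attached to all samples but worded only for YFH1-off cells, the mating type and the number of clones are not given in the sources used here, and nothing says that replicates came from separate cultures.

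YFH1 encodes yeast frataxin, a mitochondrial matrix protein that works with the cysteine desulfurase NFS1 and the scaffolds ISU1 and ISU2 to build iron-sulfur clusters, and its loss in humans underlies Friedreich ataxia. In yeast, clusters made in mitochondria are also read as the signal of iron sufficiency. When they are scarce, the transcription factors Aft1 and Aft2 stay in the nucleus and turn on the iron regulon, which brings iron into the cell and, through the RNA-binding protein TIS11 (also called Cth2), promotes the decay of messages for iron-using proteins.

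Total counts ran from 8135080 to 8877716 in the WT libraries and from 6694390 to 9964362 in the YFH1-off libraries. Values below are CPM, counts per 1000000 counts of a library whose size was scaled by its TMM factor, and those of one group are always in the order of replicates 2, 3, 4 and 5. WT replicate 2 stood apart: 165 of 5223 genes lay over 2-fold from the mean log2 CPM of the other libraries of the group there. The same held for 10 to 20 genes in the other WT libraries and 3 to 13 genes in the YFH1-off libraries. Every list was therefore counted with and without it. Among the mating type markers, the a-specific receptor gene STE2 averaged 802 CPM in WT and 172 CPM with YFH1 off. The alpha-factor gene MF(ALPHA)1 stayed under 1.5 CPM in all 8 libraries. The 7 a-specific genes together took a mean of 0.189% of all scaled counts in WT and 0.0401% with YFH1 off. For the 5 alpha-specific genes these means were 0.00759% and 0.00626%, so those genes were not all silent. The a-specific set was thus the higher one in both states, as in a MATa strain. Ploidy was not tested.

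YFH1 itself stood at 67.9, 63.2, 62.9 and 59.9 CPM in WT and at 5.86, 7.14, 8.93 and 6.71 CPM with YFH1 off. All 4 YFH1-off libraries were far below all 4 WT libraries, and the message was reduced to 11.3% ± 2.04 (SD over the 4 YFH1-off libraries) of the WT mean. The log2 fold change was -3.14 ± 0.121 (SE), with a Benjamini-Hochberg (BH) adjusted p of 1.95e-12 by edgeR's quasi-likelihood test. Of the neighbours on either side, YDL121C and HEM25, which encodes a mitochondrial glycine carrier, had log2 fold changes of -0.16 and -0.47; HEM25 passed the test and YDL121C did not, although it passed at -0.21 without WT replicate 2. The H3 genes HHT1 and HHT2 were higher with YFH1 off, at log2 fold changes of 0.84 and 0.79.

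The shutoff was accompanied by small changes in many genes and large changes in few. Of 5876 genes tested, 2909 (49.5%) passed an adjusted p of 0.05, 1440 of them higher (24.5%) and 1469 lower (25.0%) with YFH1 off. Counts over gene lists below are to be read beside these shares. The 2 groups of libraries did not overlap in 2500 genes (42.5%). Among the genes that passed, 1868 (64.2%) differed by less than 1.5-fold. Rises of at least 2-fold were found in 289 genes (4.92%) and falls of that size in 240 (4.08%); 104 rose and 70 fell at least 4-fold, and 22 rose and 6 fell at least 16-fold. The median log2 fold change over the genes tested was 0.0087. It was -0.107 when libraries were scaled by their size alone, and 30.9% in place of 49.5% of the genes that passed were then higher. Changes below are relative to the TMM-scaled median, and sizes of rises and falls are log2 fold changes. In bulk RNA, a change in some of the cells and a smaller change in all of them cannot be told apart. Without WT replicate 2, 1621 genes were higher (27.5%) and 1604 lower (27.2%), and 2741 of the 2909 genes passed again, each in the same direction.

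**Figure D1:**
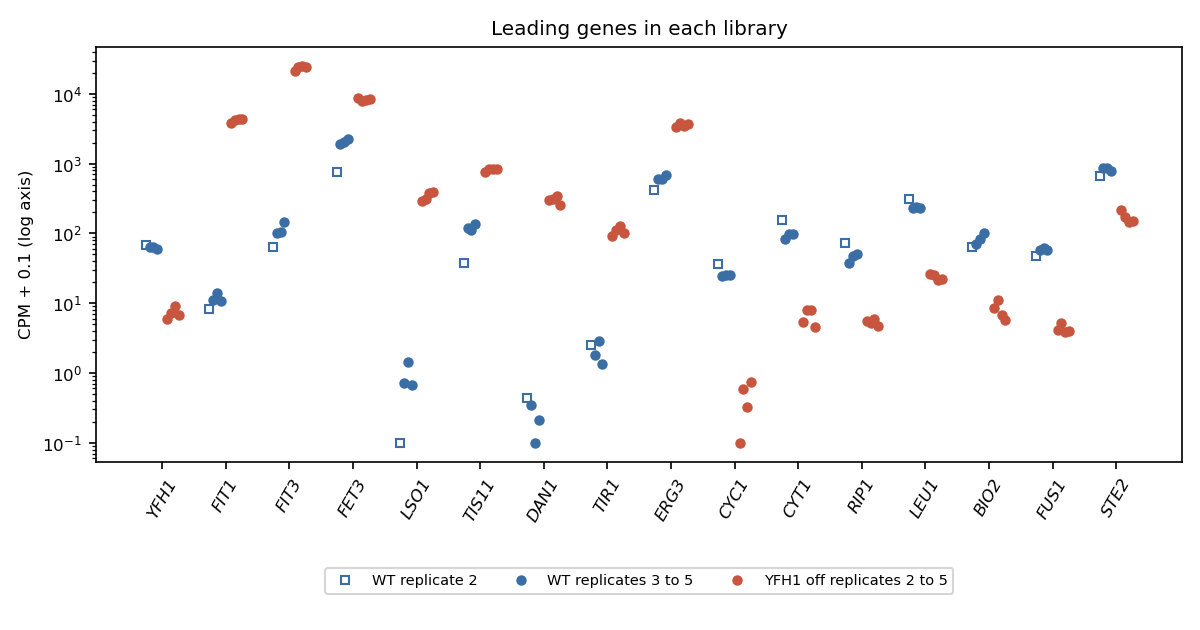
CPM plus 0.1 on a log axis for 16 genes in each of the 8 libraries, with WT replicate 2 as open squares, WT replicates 3 to 5 as filled blue circles and YFH1-off replicates 2 to 5 as filled red circles. YFH1 lies between 5.86 and 8.93 CPM with YFH1 off. The groups overlap in none of the 16 genes, but most of them were named by a rule that asked for no overlap. Among all 5876 genes tested, 2500 (42.5%) showed none.

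Iron uptake at the cell surface was the most strongly raised of the pathways examined. Of its 14 genes, 13 rose, all at least 2-fold, and 1 fell, with a median log2 fold change of 3.94 against 0.0087 over all genes; without WT replicate 2 the counts were 13 and 1 again and the median 3.77. The summed level of the 14 genes was 1575, 3848, 3998 and 4571 CPM in WT and 59265, 62737, 64882 and 64503 CPM with YFH1 off, that is, a mean of 0.35% of all scaled counts in WT and 6.28% with YFH1 off. WT replicate 2 was well below the other WT libraries, and all YFH1-off libraries were more than 10 times above the highest of them.

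The 3 FIT genes encode cell wall mannoproteins that retain iron carried by siderophores, and FIT1 and FIT3 had the largest rises of the list. FIT1 stood at 8.17, 10.9, 13.8 and 10.8 CPM in WT and at 3774, 4191, 4368 and 4411 CPM with YFH1 off. FIT2 stood at 55.5, 143, 146 and 188 CPM in WT and at 6347, 6900.3, 7302 and 7093 CPM with YFH1 off. FIT3 stood at 63.5, 101, 105 and 144 CPM in WT and at 21066, 24512, 25237 and 24386 CPM with YFH1 off. The groups were far apart in all 3 genes, and FIT3 alone took 2.21% of all counts with YFH1 off. The log2 fold changes were 8.59 ± 0.153 for FIT1, 5.70 ± 0.301 for FIT2 and 7.84 ± 0.295 for FIT3, with adjusted p-values of 3.82e-16, 9.78e-11 and 1.4e-12 (edgeR). Their promoters are shown because they hold the letters that Aft1 and Aft2 are known to bind, TGCACCC, which were searched on both strands of the 500 bases before each start codon in the R64 (sacCer3) genome of RefSeq. The stretches below run 5′ to 3′ along the gene's strand, with each match in capitals (GGGTGCA is a match on the other strand), and come from chrIV:1505061-1505200, minus strand (FIT1), chrXV:1059181-1059410, plus strand (FIT2) and chrXV:1061216-1061355, minus strand (FIT3).
FIT1: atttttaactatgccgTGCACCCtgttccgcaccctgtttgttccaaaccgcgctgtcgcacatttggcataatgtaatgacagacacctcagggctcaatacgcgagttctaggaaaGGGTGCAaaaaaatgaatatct
FIT2: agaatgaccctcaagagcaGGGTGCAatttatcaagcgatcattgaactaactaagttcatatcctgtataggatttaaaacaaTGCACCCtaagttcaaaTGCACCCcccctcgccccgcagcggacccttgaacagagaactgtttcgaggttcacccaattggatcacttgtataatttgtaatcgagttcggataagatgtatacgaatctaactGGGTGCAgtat
FIT3: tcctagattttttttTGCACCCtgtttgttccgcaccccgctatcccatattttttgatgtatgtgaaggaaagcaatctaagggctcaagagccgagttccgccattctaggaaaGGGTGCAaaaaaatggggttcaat
The FIT1 and FIT3 stretches each hold 2 matches, and the FIT2 stretch holds 4. At least 1 match was present in 13 of the 14 promoters of the uptake list, all but that of FRE1, against 134 of 5634 tested promoters (2.38%). By number of matches, the median log2 fold change was 0.0038 over 5500 promoters with none, 0.27 over 122 with 1 and 3.03 over 11 with 2, and the promoter with 4, that of FIT2, had 5.70. Of the 229 genes with a promoter in this search that fell at least 2-fold, 0 had a match, and of the 278 that rose at least 2-fold, 41 (14.7%) had one. Smaller falls did occur with a match. Of the 122 genes with 1 match, 62 were called higher and 20 lower, FRE4 among the 20. Of the 5500 with none, 1333 were higher and 1426 lower. In the lists of iron movement and of iron regulators, described below, 7 of 15 and 2 of 15 promoters had a match. A match is a description of these letters and does not show binding.

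The siderophore transporters rose together. ARN2, a carrier for triacetylfusarinine C, stood at 80.6, 193, 192 and 225 CPM in WT and at 5548, 5973, 6028 and 6063 CPM with YFH1 off, and its log2 fold change was 5.10 ± 0.249. ARN1, SIT1 and ENB1, which carry other iron-loaded siderophores, had log2 fold changes of 4.36, 3.51 and 3.46. The WT libraries themselves were uneven in all 4 genes, with replicate 2 below the other WT libraries, by the least in ENB1, which stood at 92.1, 109.6, 109.6 and 109 CPM in WT. In none of the 4 genes did the groups overlap.

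Among the reductases that turn ferric into ferrous iron at the surface, FRE5 stood at 1.61, 7.06, 7 and 6.57 CPM in WT and at 334, 355, 344 and 335 CPM with YFH1 off. FRE2 stood at 13.5, 18.3, 15.1 and 18.8 CPM in WT and at 1022, 971, 1098 and 1077 CPM with YFH1 off. FRE5 and FRE2 rose by 5.95 ± 0.221 and 5.99 ± 0.172 on the log2 scale, and all YFH1-off libraries exceeded all WT libraries many times over. FRE1 and FRE3 rose less, by 2.88 (log2) and 2.95. FRE4 was the exception in the list: it was at 6.22, 7.43, 5.43 and 7.47 CPM in WT and 4.43, 5.68, 4.12 and 3.68 CPM with YFH1 off, so that the groups overlapped, and it fell by 0.59 on the log2 scale (adjusted p = 0.00706, edgeR). The high-affinity ferrous transport complex was already abundant in WT. Its oxidase gene FET3 stood at 764, 1911, 2020.2 and 2235 CPM in WT and at 8791, 8019, 8187 and 8417 CPM with YFH1 off, and its permease gene FTR1 at 284, 830.1, 862 and 999 CPM in WT and at 5269, 4487, 4862 and 5003 CPM with YFH1 off. Both rose, with log2 fold changes of 2.27 ± 0.224 and 2.72 ± 0.267, smaller than those of the FIT genes.

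**Figure D2:**
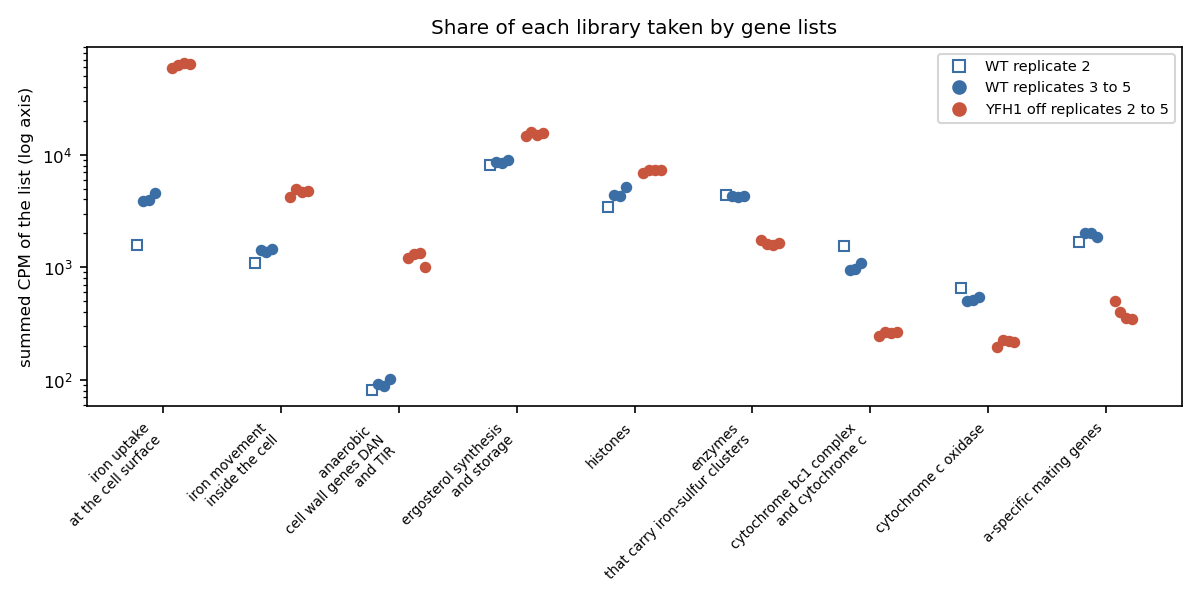
Summed CPM of 9 gene lists on a log axis in each library, with WT replicate 2 as open squares, WT replicates 3 to 5 as filled blue circles and YFH1-off replicates as filled red circles. The iron uptake list lies at 1575 to 4571 CPM in WT and at 59265 to 64882 CPM with YFH1 off, and WT replicate 2 is the lowest WT library there and the highest in the bc1 and cytochrome c oxidase lists.

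Of 15 genes for iron and metal movement inside the cell and across other membranes, 12 rose and 3 fell, with a median log2 fold change of 1.45 (12, 3 and 1.35 without WT replicate 2). The vacuolar iron exporters FTH1 and FET5, which return stored iron to the cytosol, rose by 2.25 (log2) and 1.79, and SMF3, another vacuolar exporter, by 1.08. CCC1, which moves iron into the vacuole, went the other way. It stood at 104, 82.9, 94.6 and 78.5 CPM in WT and at 29.3, 30.5, 28.5 and 28.1 CPM with YFH1 off, with no overlap, and fell by 1.63 ± 0.0835 on the log2 scale (adjusted p = 6.39e-11, edgeR). MRS4, a mitochondrial iron carrier, stood at 22.6, 28.6, 30.5 and 30.2 CPM in WT and at 133, 138, 162 and 155 CPM with YFH1 off and rose by 2.40 (log2), whereas its paralog MRS3 rose by 0.38. HMX1, the heme oxygenase that frees iron from heme, rose by 3.06 (log2), and FET4, a low-affinity transporter of iron, copper and zinc, rose by 2.84. The manganese transporter SMF1 and the pyrimidine nucleotide carrier RIM2 fell, by 0.84 (log2) and 0.46.

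The regulators of iron use moved as well. TIS11 stood at 37.1, 119, 112 and 135 CPM in WT and at 751, 850.1, 835 and 849.8 CPM with YFH1 off, with WT replicate 2 lowest and all YFH1-off libraries more than 5 times the highest WT library, and its log2 fold change was 3.03 ± 0.256. Its paralog CTH1 had a log2 fold change of -0.11 and did not pass. LSO1, a small protein gene induced by iron deprivation, went from 0, 0.619, 1.33 and 0.566 CPM in WT to 287, 309, 381 and 388 CPM with YFH1 off, a log2 fold change of 9.07 ± 0.299, and its paralog LSO2 did not pass at 0.057. AFT1 and AFT2 rose by 1.11 (log2) and 0.51, YAP5, a factor that responds to high iron, by 1.10, and AKR1, a palmitoyl transferase, by 1.62. The glutaredoxins GRX3 and GRX4, which relay the cluster signal to Aft1, fell by 0.24 (log2) and 0.90. In all, 8 of the 15 genes in this list rose and 4 fell, the same counts as without WT replicate 2.

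Enzymes that carry iron-sulfur clusters fell as a group. Of 21 genes, 18 were lower, 14 of them at least 2-fold, and 1 was higher, with a median log2 fold change of -1.53; without WT replicate 2, 19 were lower and 1 higher. Their summed level was 4401, 4330.1, 4224 and 4262 CPM in WT and 1753, 1615, 1561 and 1633 CPM with YFH1 off, even within each group and without overlap. LEU1, isopropylmalate isomerase of leucine synthesis, stood at 311, 233, 236 and 235 CPM in WT and at 26, 25.2, 21.5 and 22 CPM with YFH1 off. BIO2, biotin synthase, stood at 64.8, 71.6, 82.7 and 101 CPM in WT and at 8.43, 10.9, 6.75 and 5.74 CPM with YFH1 off. RIP1, the Rieske protein of the bc1 complex, stood at 73, 38, 46.9 and 49.8 CPM in WT and at 5.43, 5.03, 5.84 and 4.65 CPM with YFH1 off. In each of the 3 genes the YFH1-off libraries lay more than 4-fold below the lowest WT library, and the log2 fold changes were -3.43 ± 0.154, -3.37 ± 0.216 and -3.31 ± 0.198, with adjusted p-values of 1.13e-11, 1.15e-09 and 4.75e-10 (edgeR).

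Cluster enzymes of the mitochondria and of the cytosol were both among those that fell. GLT1, the cytosolic glutamate synthase, fell by 2.18 (log2), ACO1, the aconitase of the tricarboxylic acid cycle, by 1.32, and LIP5, lipoate synthase, by 1.89. DPH2 of diphthamide synthesis fell by 1.93 (log2), LYS4, homoaconitase, by 1.84, ILV3, dihydroxyacid dehydratase, by 1.61, and RLI1, an essential ribosome recycling factor, by 1.53. Several nuclear members differed by less. POL3, PRI2 and RAD3, which replicate or repair DNA, fell by 0.17 (log2), 0.29 and 0.40, POL3 losing its call in 5 of the 8 fits that leave out 1 library, the glycosylase NTG2 rose by 0.34, and the helicase and nuclease DNA2 did not pass at 0.057. DPH1, a partner of DPH2 in the same enzyme complex, did not pass with all libraries (log2 fold change -0.071) and did without WT replicate 2.

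**Figure D3:**
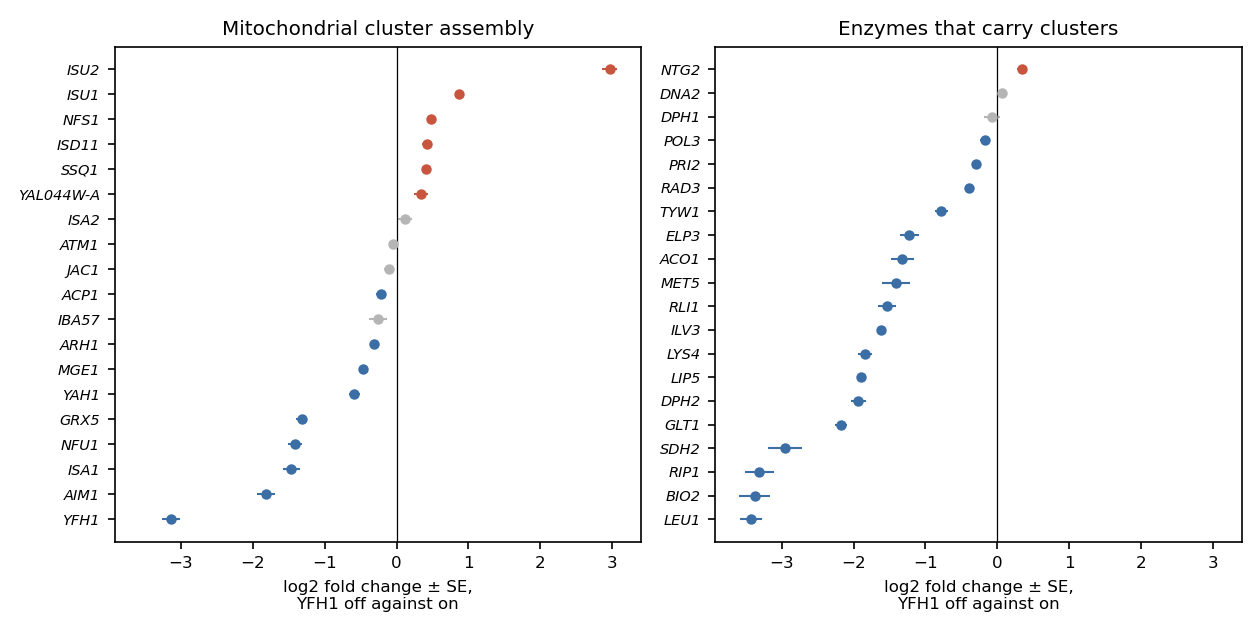
Log2 fold change with its SE (horizontal bar) for each gene of mitochondrial cluster assembly (left) and for 20 of the 21 cluster enzymes (right), in red where called higher, blue where called lower and grey where not called. On the left ISU2 stands alone at 2.96 and YFH1 at -3.14, and on the right 13 of the 20 genes lie below -1.

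The machinery that builds the clusters split. Of 19 mitochondrial assembly genes, 6 rose and 9 fell, YFH1 being 1 of the 9 (7 and 9 without WT replicate 2). Most genes of the core complex rose. ISU2 stood at 26.8, 23.8, 28.8 and 30.7 CPM in WT and at 204, 194, 226 and 236 CPM with YFH1 off, with no overlap, and rose by 2.96 ± 0.103 (log2). Its paralog ISU1 rose by 0.86 (log2), NFS1 by 0.48, its partner ISD11 by 0.42 and SSQ1, the chaperone that releases the cluster from the scaffold, by 0.41. ACP1, the acyl carrier protein of the core complex, fell by 0.22 (log2), and YAH1 and ARH1, its electron donors, fell by 0.59 and 0.31. Several genes of the later steps fell further. GRX5, which receives the cluster, fell by 1.32 (log2), and ISA1 and NFU1, which act late in the pathway, by 1.46 and 1.41, although ISA2, the partner of ISA1, did not pass at 0.12 (it passed at 0.24 without WT replicate 2). The exporter ATM1 did not pass at -0.043. Of the 10 cytosolic assembly genes, 2 rose and 2 fell; DRE2, which is itself a cluster protein, fell by 0.79 (log2) and CFD1, a scaffold subunit, rose by 0.55.

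Genes of the respiratory chain fell with few exceptions. In the cytochrome bc1 complex with cytochrome c, 10 of 11 genes were lower and 0 higher, with a median log2 fold change of -2.58 (-2.37 without WT replicate 2, with the same counts). CYC1, the main cytochrome c, stood at 36, 24.4, 25 and 25.5 CPM in WT and at 0, 0.487, 0.229 and 0.649 CPM with YFH1 off. CYT1, cytochrome c1, stood at 157, 83.6, 99.7 and 97.6 CPM in WT and at 5.29, 7.96, 7.78 and 4.44 CPM with YFH1 off. CYC1 was close to absent in all YFH1-off libraries, with at most 0.649 CPM, and the log2 fold changes of CYC1 and CYT1 were -6.24 ± 0.298 and -4.12 ± 0.209. The hypoxic cytochrome c CYC7 stayed under 2.5 CPM in all libraries and did not pass. COR1, QCR2, QCR7, QCR8 and QCR10 had log2 fold changes from -2.48 (COR1) to -2.79 (QCR7), and QCR6, the acidic hinge subunit, fell by only 0.67. WT replicate 2 was the highest WT library in all these genes, by a median of 0.71 on the log2 scale.

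Cytochrome c oxidase, ATP synthase and succinate dehydrogenase fell to different depths. Of 10 oxidase genes 9 fell, with a median of -1.56, and 0 rose. COX6 stood at 83.5, 60.5, 62.3 and 61.2 CPM in WT and at 11.7, 9.26, 12.2 and 7.9 CPM with YFH1 off and fell by 2.70 (log2). COX5A, the aerobic form of subunit V, fell by 1.83 (log2), whereas its hypoxic form COX5B did not pass at 0.10. The 4 core subunits of succinate dehydrogenase fell, with log2 fold changes of -2.65 for SDH1, -2.95 for SDH2, -2.40 for SDH3 and -2.28 for SDH4. Of its assembly factors SDH5, SDH6 and SDH7 did not pass and SDH8 rose by 0.38 (log2). Of 17 genes of ATP synthase and its inhibitors 15 fell and 0 rose (14 and 0 without WT replicate 2). Only 2 of them fell at least 2-fold, ATP20 by 1.14 (log2) and the inhibitor gene INH1 by 2.38. ATP1 and ATP2, which encode subunits of the catalytic part of the enzyme, fell by 0.67 (log2) and 0.51. These falls were shallower than those of the bc1 and oxidase lists.

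Among the dehydrogenases that feed the respiratory chain is CIR2, the yeast counterpart of the electron-transferring flavoprotein dehydrogenase. CIR2 stood at 201, 189, 179 and 178 CPM in WT and at 10.3, 9.26, 9.15 and 8.98 CPM with YFH1 off. It fell by 4.31 ± 0.0924 (log2). NDE1, an external NADH dehydrogenase, fell by 2.70 (log2), NDI1, the internal one, fell by 2.04 and CYB2, lactate dehydrogenase, fell by 2.89. Of the 12 genes in this list 7 fell and 3 rose, with or without WT replicate 2. The 3 that rose were NDE2, AIF1 and CIR1, none of them at least 2-fold. DLD1, the D-lactate dehydrogenase, did not pass at -0.14 (it passed at -0.16 without WT replicate 5 and without YFH1-off replicate 5), and CIR1, the flavoprotein partner of CIR2 in the list, rose by 0.32 (log2), a call lost in 7 of the 8 fits that leave out 1 library. CCP1, cytochrome c peroxidase, stood at 144, 103, 104 and 99.1 CPM in WT and at 10.01, 12.7, 13.5 and 10.7 CPM with YFH1 off and fell by 3.26 ± 0.149 (log2). In CIR2 and CCP1 the groups were separated more than 5-fold at the nearest libraries.

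The promoters of these genes were searched for CCAATNA, the letters that the respiratory activator Hap2/3/4/5 is known to bind. A match on either strand was found in 16 of 17 promoters of the ATP synthase list, 8 of 10 of the oxidase list, 11 of 14 of the tricarboxylic acid list, 7 of 11 of the bc1 list and 5 of 11 of the succinate dehydrogenase list, against 1377 of 5634 tested promoters (24.4%). The share was 33.2% among genes that fell at least 2-fold and 22.7% among those that rose at least 2-fold. The iron uptake list, which rose, had a match in 6 of 14 promoters, and CYC1 and CYT1, with the deepest falls of the bc1 list, had 0. COR1, with 2 matches, and QCR7, with 1, are shown from chrII:135827-135886, minus strand (COR1) and chrIV:1496699-1496758, minus strand (QCR7), with the matches in capitals.
COR1: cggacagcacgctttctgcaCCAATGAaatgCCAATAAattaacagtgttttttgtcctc
QCR7: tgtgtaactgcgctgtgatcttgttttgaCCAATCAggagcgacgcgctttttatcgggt
HAP4, the activator subunit of that complex, stood at 89.3, 101, 110.3 and 94.4 CPM in WT and at 20.01, 19.97, 22.1 and 18.5 CPM with YFH1 off. Every YFH1-off library lay more than 4-fold below the lowest WT library, and HAP4 fell by 2.29 ± 0.0858 on the log2 scale (adjusted p = 1.38e-12, edgeR). The DNA-binding subunits HAP2, HAP3 and HAP5 did not pass, at -0.23, -0.10 and 0.32; HAP5 passed as higher without WT replicate 2, at 0.48 (log2), and without YFH1-off replicate 2, at 0.39. HAP1, the other heme-responsive activator of respiratory genes, rose by 1.87 ± 0.0572 (log2), from 316 to 1157 CPM on average.

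Heme synthesis was lower in most steps. Of 14 genes for heme synthesis, insertion and breakdown, 8 fell and 3 rose, the same counts as without WT replicate 2. HEM15, ferrochelatase, which puts iron into the ring, stood at 158, 134, 123 and 139 CPM in WT and at 18.3, 21.4, 21.6 and 18.3 CPM with YFH1 off and fell by 2.80 ± 0.0869 (log2), without overlap. HEM13, HEM3 and HEM1 fell by 1.01 (log2), 0.94 and 0.74, and COX15 and CYT2, which modify or attach heme, by 1.34 and 0.96. HEM2 and HEM12 rose by 0.39 (log2) and 0.20, and the third gene that rose was the heme oxygenase HMX1. HEM13 is known as a hypoxic gene, and it fell where several other hypoxic genes, described next, rose.

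The tricarboxylic acid cycle changed unevenly. Of 14 genes 9 fell and 3 rose (9 and 4 without WT replicate 2). KGD2 and KGD1 of the oxoglutarate dehydrogenase fell by 1.44 (log2) and 1.24. IDH1 and IDH2, the subunits of isocitrate dehydrogenase, rose by 1.18 (log2) and 0.67. The retrograde markers depended on WT replicate 2. CIT2, the peroxisomal citrate synthase that rises when mitochondria fail, stood at 358, 42, 40.5 and 40.3 CPM in WT and at 217, 269, 254 and 266 CPM with YFH1 off. WT replicate 2 was above all YFH1-off libraries and the other WT libraries were below all of them. With all libraries CIT2 did not pass (1.06, adjusted p = 0.109, edgeR), and without WT replicate 2 it was higher by 2.62 (log2) (adjusted p = 1.36e-12). DLD3, another retrograde target, behaved alike, at 0.81 with and 1.77 (log2) without that library. The regulators RTG1, RTG2 and RTG3 did not pass in either fit.

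Genes known from anaerobic growth rose, among them the largest rise of all. All 8 DAN and TIR genes, which encode cell wall mannoproteins made without oxygen, were higher, 7 of them at least 2-fold, with a median log2 fold change of 3.55 (3.64 without WT replicate 2). DAN1 stood at 0.345, 0.248, 0 and 0.1132 CPM in WT and at 302, 312, 346 and 255 CPM with YFH1 off. TIR1 stood at 2.42, 1.73, 2.78 and 1.25 CPM in WT and at 92.9, 113.3, 127 and 101 CPM with YFH1 off. DAN1 was at or under 3 counts in every WT library and was therefore at least 818-fold higher against the floor of 3 counts per library. TIR1 rose by 5.73 ± 0.2 (log2), TIR2 by 4.10, TIR3 by 3.66, TIR4 by 2.69 and DAN4 by 2.22. Of the 24 seripauperin (PAU) genes, 11 could be tested and 7 rose, 0 fell (6 and 0 without WT replicate 2). PAU23 and PAU24 are also among the 8 genes of the DAN and TIR list. All 24 together summed to only 10.3 to 11.5 CPM in WT, and the filter asks for about 1.17 CPM in at least 4 libraries. PAU3 and PAU4, with at most 3 counts in every WT library, entered the test only through other groups. A fall could not be seen in such genes, so the counts do not weigh rises against falls. DAN1 likewise entered the test only through other groups, and TIR1 was at only 1.25 to 2.78 CPM in WT. The same limit therefore covers the counts of the DAN and TIR list. PAU5 stood at 0.921, 0.743, 1.33 and 0.566 CPM in WT and at 31.3, 32.2, 53.8 and 49.9 CPM with YFH1 off, a rise of 5.55 (log2). PAU genes share much sequence (52.9% of PAU24 and 24.7% of PAU5 lie in 50-base words found elsewhere in the genome), and the handling of reads with several matches is not given, so the split among them is uncertain.

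Other hypoxic genes followed in part. ANB1, the hypoxic form of the translation factor eIF5A, stood at 3.34, 5.08, 6.52 and 6.12 CPM in WT and at 79.5, 71.6, 70.3 and 56.2 CPM with YFH1 off and rose by 3.72 ± 0.16 (log2). The sterol importer AUS1 rose by 2.71 (log2), its relative PDR11 by 1.10 and the ADP/ATP carrier AAC3 by 1.31. OLE1, the oxygen-dependent desaturase, fell by 0.43 (log2), although its groups overlapped through WT replicate 2, the lowest library of all, and its call was lost in 5 of the 8 fits that leave out 1 library. The aerobic repressor ROX1 rose by 1.45 (log2) and MOT3, another repressor of hypoxic genes, fell by 0.59. In the list of 18 hypoxic metabolic genes 9 rose and 5 fell, and 10 and 3 without WT replicate 2.

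Sterol genes moved both ways. Of 27 genes 14 rose, 11 of them at least 2-fold, and 10 fell (15 and 10 without WT replicate 2). ERG3, the C-5 desaturase, which uses oxygen and iron, stood at 422, 597, 613 and 682 CPM in WT and at 3408, 3801, 3434 and 3655 CPM with YFH1 off. It rose by 2.63 ± 0.111 (log2), with every YFH1-off library over 4 times the highest WT library. The other enzymes from lanosterol onward also rose, ERG25 by 1.39 (log2), ERG27 by 1.37, ERG4 by 1.40, ERG6 by 1.14, ERG24 by 1.02 and ERG2 by 1.01, except ERG11, which fell by 0.60, and ERG5, which rose by only 0.18. NCP1, the reductase that serves ERG11, rose by 1.58 (log2). Among the upstream enzymes, IDI1 fell by 1.34 (log2) and ERG7, lanosterol synthase, by 1.00, while ERG9, squalene synthase, rose by 0.45. The sterol ester synthases parted, ARE1 rising by 1.59 (log2) and ARE2 falling by 0.96. The sterol-sensing activators UPC2 and ECM22 rose by 2.18 ± 0.083 (log2) and 0.88 ± 0.0816.
DAN1 and ERG3 share the letters TCGTATA that Upc2 is known to bind, shown in capitals from chrX:709868-709947, minus strand (DAN1) and chrXII:253516-253595, plus strand (ERG3). TATACGA is a match on the other strand.
DAN1: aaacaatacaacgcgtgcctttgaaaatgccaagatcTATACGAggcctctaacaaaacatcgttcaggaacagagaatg
ERG3: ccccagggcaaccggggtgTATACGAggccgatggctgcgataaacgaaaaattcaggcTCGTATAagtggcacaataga
A match was found in 5 of 8 DAN and TIR promoters, 8 of 27 sterol promoters and 40 of the 278 promoters of genes that rose at least 2-fold (14.4%), against 392 of 5634 (6.96%).

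Fatty acid and phospholipid synthesis went down. Of 17 genes 14 fell and 1 rose, the same counts as without WT replicate 2. ELO1, which elongates medium-chain fatty acids, stood at 138, 159, 143 and 148 CPM in WT and at 22.3, 16.7, 23.5 and 27 CPM with YFH1 off and fell by 2.70 ± 0.118 (log2). CHO2 and OPI3, which methylate phosphatidylethanolamine, fell by 1.50 (log2) and 1.36, and FAS2 and ACC1 by 0.67 and 0.58. The exception was FAA4, an acyl-CoA synthetase, which rose by 0.91 (log2).

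**Figure D4:**
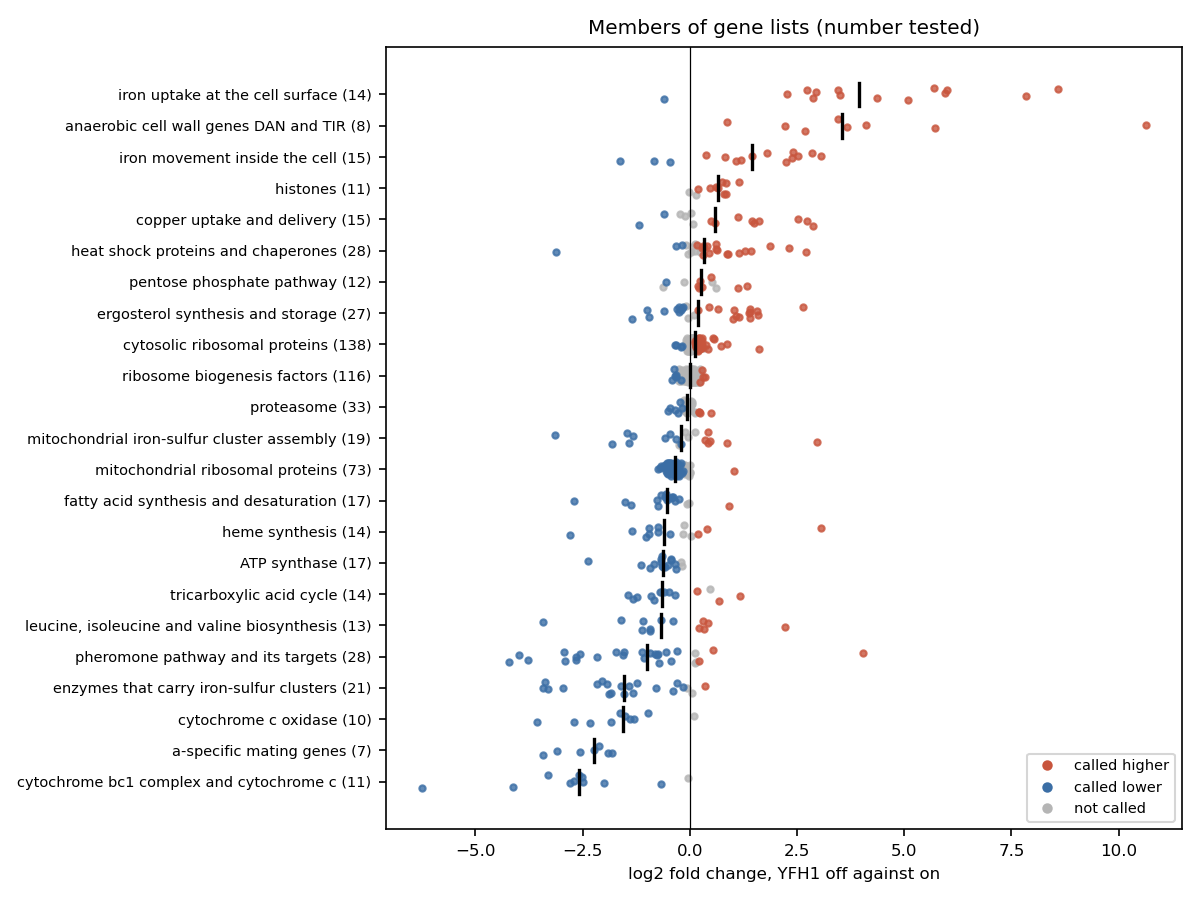
Log2 fold change of each tested member (point) of 23 gene lists, with the list's median as a black bar and points coloured by call. Iron uptake and the DAN and TIR genes lie to the right with medians of 3.94 and 3.55, and the bc1 complex with cytochrome c lies farthest left with a median of -2.58.

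Most mating genes fell. All 7 a-specific genes were lower at least 2-fold, and of 28 genes of the pheromone pathway 22 fell and 3 rose; without WT replicate 2 the counts were the same. STE2, the receptor for alpha factor, stood at 674, 875, 871 and 789 CPM in WT and at 217, 173, 148 and 149 CPM with YFH1 off. AGA2, a subunit of a-agglutinin, stood at 91.2, 98.2, 110.3 and 95 CPM in WT and at 9.58, 8.28, 10.3 and 8.55 CPM with YFH1 off. FUS1, a cell fusion protein, stood at 47.4, 57.6, 61.9 and 57.6 CPM in WT and at 4, 5.03, 3.78 and 3.9 CPM with YFH1 off. The groups did not overlap in any of the 3, and the log2 fold changes were -2.23 ± 0.117, -3.42 ± 0.087 and -3.76 ± 0.119. BAR1, the protease that destroys alpha factor, fell by 3.10 (log2) and FAR1, which arrests the cycle, fell by 2.64. AGA1, the kinase FUS3 and the transcription factor STE12 had log2 fold changes of -2.94, -1.72 and -1.11. The shared kinases STE20 and STE7 did not pass, at 0.13 and 0.14, and STE11 rose by 0.21 (log2). PRM4 stood apart from the other pheromone-regulated genes, at 6.56, 8.92, 11.5 and 13.5 CPM in WT and at 153, 169.7, 175 and 162 CPM with YFH1 off, and rose by 4.03 ± 0.129 (log2). The Ste12 letters TGAAACA were in 7 of 7 a-specific and 18 of 28 pathway promoters, against 666 of 5634 (11.8%). FAR1, which fell, had 0 matches, and the sterol gene ERG24, which rose, had 3. FUS1 has 2 matches in chrIII:71593-71672, plus strand, and PRM1, which fell by 2.66 (log2), has 3 on the other strand (TGTTTCA) in chrXIV:110717-110776, plus strand, all in capitals.
FUS1: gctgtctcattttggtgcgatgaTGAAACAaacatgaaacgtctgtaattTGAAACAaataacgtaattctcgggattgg
PRM1: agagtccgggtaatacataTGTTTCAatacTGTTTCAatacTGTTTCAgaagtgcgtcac

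Copper genes shifted mostly upward. Of 15 genes tested 9 rose and 2 fell, with or without WT replicate 2. Among the rises, CCC2, ATX1 and FRE1 were also counted in the iron lists above. CCC2 and ATX1, which deliver copper to FET3, rose by 2.52 (log2) and 1.45, and the vacuolar copper exporter CTR2 by 1.62. CTR1, the high-affinity copper transporter, stood at 24.6, 26.8, 30.4 and 24.1 CPM in WT and at 65.3, 287, 182 and 172 CPM with YFH1 off. It was higher in every YFH1-off library, but those libraries ranged more than 4-fold among themselves, with replicate 2 lowest and replicate 3 highest, and the log2 fold change was 2.74 ± 0.298. CTR3, a second copper transporter, also had replicate 2 lowest and replicate 3 highest, at 4.37, 3.47, 4.22 and 4.53 CPM in WT and at 5, 19.2, 11.1 and 12.6 CPM with YFH1 off. MAC1, the factor that controls both, did not pass at 0.023. The copper-zinc superoxide dismutase SOD1 and its chaperone CCS1 rose by 0.50 (log2) and 1.13, and the mitochondrial manganese enzyme SOD2 fell by 1.19. Zinc genes gave 4 rises and 5 falls among 14 (3 and 6 without WT replicate 2), where 24.5% of all genes rose and 25.0% fell. ADH4 fell by 1.93 (log2) and ZPS1 rose by 1.51. ZPS1 stood at 214, 412, 383 and 539 CPM in WT and at 363, 1869, 1068 and 1109 CPM with YFH1 off. Its YFH1-off replicate 2 lay within the WT range.

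Amino acid pathways that contain a cluster enzyme moved both ways. In leucine, isoleucine and valine synthesis 8 of 13 genes fell and 5 rose (8 and 4 without WT replicate 2). Besides LEU1 and ILV3, the genes LEU4, LEU9 and LEU2 fell by 0.93 (log2), 1.09 and 0.94. BAT1 and BAT2, the mitochondrial and the cytosolic branched-chain transaminase, went opposite ways: BAT1 fell by 1.11 ± 0.071 (log2) and BAT2, at 117, 90.2, 78.9 and 79.2 CPM in WT and at 403, 414, 449 and 433 CPM with YFH1 off, rose by 2.22 ± 0.101. Glutamate synthesis showed a like contrast. GLT1 stood at 516, 505, 489 and 452 CPM in WT and at 113.2, 114, 106 and 101 CPM with YFH1 off, and GDH3, a glutamate dehydrogenase isoenzyme, stood at 11.4, 9.79, 10.02 and 10.4 CPM in WT and at 102, 128, 135 and 146 CPM with YFH1 off. GLT1 fell in all YFH1-off libraries and GDH3 rose in all of them, by 3.62 ± 0.133 (log2), while the main isoenzyme GDH1 did not pass at 0.24. Of the arginine genes, ARG3 and ARG5,6 rose by 3.08 (log2) and 1.33. In lysine synthesis LYS20, the first enzyme, rose by 0.79 (log2) next to the fall of LYS4. In the biotin list BIO4 fell by 2.72 (log2) with BIO2, and the transporter gene VHT1 rose by 1.09.

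The counts for sulfur metabolism turned on WT replicate 2. With all libraries 9 of 29 genes were lower and 2 higher, with a median log2 fold change of -0.57; without that library 7 were lower and 7 higher, with a median of 0.11. MET6, methionine synthase, stood at 6427, 1389, 1025 and 813 CPM in WT and at 382, 379, 396 and 447 CPM with YFH1 off. MET17, which makes homocysteine, stood at 686, 209, 157 and 112 CPM in WT and at 70.3, 79.4, 63.4 and 89.5 CPM with YFH1 off. In both genes WT replicate 2 was the highest library by far and every YFH1-off library was below every WT library, and the log2 fold changes of -2.59 and -1.94 became -1.42 and -1.07 without it and passed in both fits. MET17 overlaps an opposite-strand gene, and strand use in counting is not given. STR3, which frees homocysteine from cystathionine, was called lower only through that library: its WT values were 94.2, 2.97, 2.9 and 3.28 CPM and its YFH1-off values 4.43, 4.06, 2.98 and 5.52 CPM. The log2 fold change was -2.60 with all libraries and 0.48 without WT replicate 2, where it did not pass (adjusted p = 0.159, edgeR). MET4, the activator of the pathway, rose by 0.42 (log2).

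Stress genes moved selectively. Of 28 heat shock and chaperone genes 18 rose and 3 fell (19 and 3 without WT replicate 2). HSP78, a mitochondrial disaggregase, stood at 66.9, 35.6, 31 and 32.8 CPM in WT and at 167, 208, 248 and 204 CPM with YFH1 off and rose by 2.31 ± 0.213 (log2). HSP30, HSP26 and HSP42 rose by 2.71 (log2), 1.86 and 1.43, and HSP42 by 2.08 without WT replicate 2. HSP12, a membrane-bound stress protein, stood at 118, 911, 802 and 683 CPM in WT and at 60.2, 76.8, 64.3 and 88.4 CPM with YFH1 off. WT replicate 2 was close to the YFH1-off libraries and the other WT libraries far above them, and the log2 fold change was -3.12 ± 0.444, or -3.46 without that library. Mitochondrial HSP60 and HSP10 did not pass and SSC1 fell by 0.32 (log2). Of 16 genes against peroxide and superoxide 5 rose and 8 fell; CTT1, cytosolic catalase, fell by 1.81 (log2), TSA1, the main peroxiredoxin, by 0.54, and SRX1, sulfiredoxin, rose by 2.73 from under 1 CPM. GTO3, an omega-class glutathione transferase, stood at 1.73, 3.84, 4.71 and 5.66 CPM in WT and at 85.1, 87, 86.6 and 83.9 CPM with YFH1 off, a rise of 4.42 ± 0.181 (log2), and OYE3, an old yellow enzyme, rose by 3.10 from about 2 CPM. In the thioredoxin and glutathione list 5 genes rose and 6 fell, and in the list of other stress oxidoreductases 9 rose and 4 fell; without WT replicate 2 the counts were 6 and 5, the reverse order, and 9 and 2.

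Carbon metabolism outside mitochondria was mixed, and its list counts are to be read beside 24.5% higher and 25.0% lower over all genes. Of 17 glycolytic genes 6 rose and 4 fell with 0 at least 2-fold, and the order of these counts reversed with library size only. PDC1 and ADH1, the main fermentation enzymes, did not pass. HXT3, a low-affinity glucose transporter, rose by 1.11 (log2). In the pentose phosphate pathway ZWF1 and GND1, the NADPH-forming enzymes, rose by 1.33 (log2) and 1.13, among 7 rises and 1 fall in 12 genes (7 and 3 without WT replicate 2). The glycogen and trehalose list had 5 rises and 3 falls in 20 genes with all libraries and 11 and 3 without WT replicate 2, whose members there were higher by a median of 0.73 on the log2 scale; the order of 5 and 3 reversed with library size only and without WT replicate 5. GLC3, the glycogen branching enzyme, rose by 1.61 (log2) (2.24 without WT replicate 2), and UGP1, which makes UDP-glucose, fell by 1.26. Among the GAL genes, which would show a response to the carbon source, GAL1 was at 7.14, 9.17, 12.7 and 12.8 CPM in WT and at 17.2, 16.9, 16.4 and 15.2 CPM with YFH1 off and GAL7 and GAL10 stayed under 3 CPM in all libraries.

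**Figure D5:**
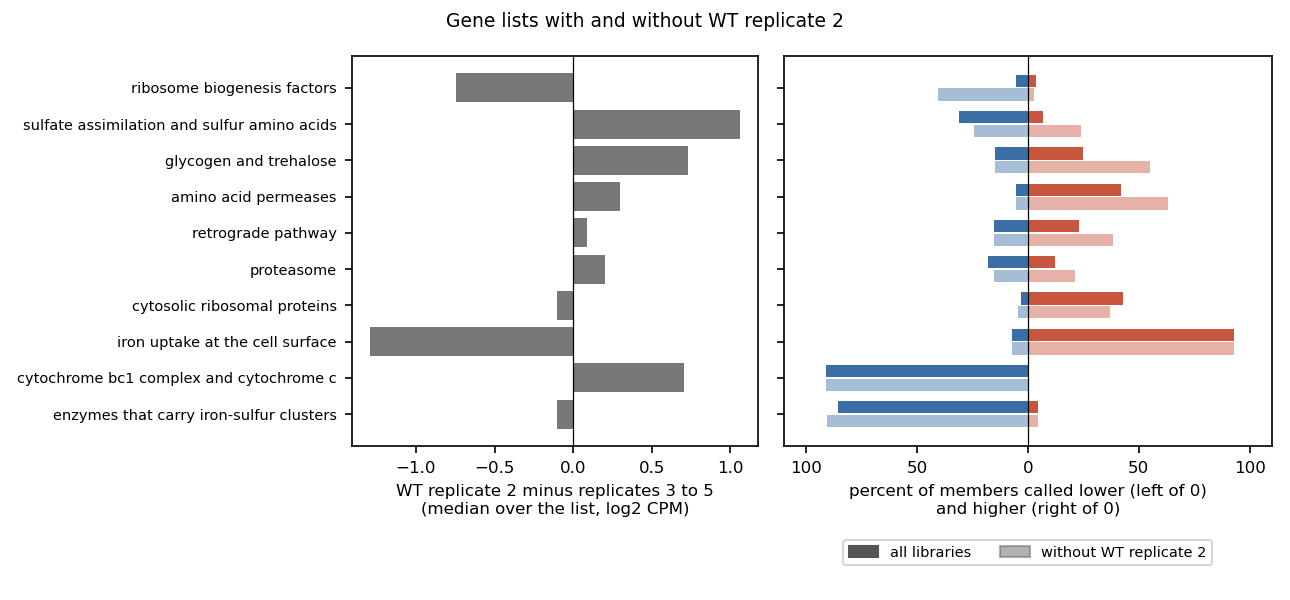
Left: median log2 CPM of WT replicate 2 minus that of WT replicates 3 to 5 over the members of 10 gene lists. Right: percent of tested members called lower (left of 0) and higher (right of 0), in full colour with all libraries and pale without WT replicate 2. The calls of the ribosome biogenesis list go from 6 to 47 lower of 116, and those of the iron uptake and bc1 lists keep their counts.

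Ribosome genes differed by compartment. Of 73 mitochondrial ribosomal protein genes 56 fell and 1 rose, with or without WT replicate 2, by a median of -0.35. Of 138 cytosolic ribosomal protein genes 59 rose and 4 fell, by a median of only 0.12, with 51 and 6 without WT replicate 2, and the majority turned to lower with library size only. Ribosome biogenesis factors gave 4 rises and 6 falls among 116 genes with all libraries and 3 and 47 without WT replicate 2, where they stood -0.74 on the log2 scale from the other WT libraries. The proteasome list had 4 rises and 6 falls among 33 genes, and 7 and 5 without that library.

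Histone genes rose, 9 of 11 with or without WT replicate 2 and 0 falling, with a median of 0.65. HTA1, an H2A gene, stood at 377, 557, 546 and 694 CPM in WT and at 1134, 1195, 1208 and 1252 CPM with YFH1 off and rose by 1.14 ± 0.12 (log2). The summed level of the list was 3456, 4365, 4339.6 and 5143 CPM in WT and 6886, 7293, 7281 and 7388 CPM with YFH1 off, so that the groups did not overlap although WT replicate 2 was lowest. The linker histone HHO1 and the centromeric CSE4 did not pass, although HHO1 passed at 0.20 without WT replicate 5. The ribonucleotide reductase subunits parted: the large subunit RNR1 rose by 0.87 (log2), the iron-containing small subunit RNR2 and its partner RNR4 fell by 1.45 and 1.21, and WTM1, which anchors them in the nucleus, stood at 429.8, 401, 391 and 385 CPM in WT and at 134, 139.8, 148 and 137 CPM with YFH1 off and fell by 1.53 ± 0.0713.

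Cell wall and phosphate genes contained further large changes. Among 22 cell wall genes 14 fell and 6 rose. CWP2, an abundant mannoprotein, stood at 3298, 3257, 3201 and 3342 CPM in WT and at 584, 679.9, 521 and 533 CPM with YFH1 off and fell by 2.50 ± 0.0773 (log2). MNN1, a mannosyltransferase, fell by 2.59 (log2); GSC2, the stress-induced glucan synthase, and the mannoprotein HPF1 rose by 2.02 and 2.37. The WT libraries were even in CWP2, GSC2 and MNN1, and the groups did not overlap. In the phosphate list 12 of 22 genes fell and 3 rose (13 and 4 without WT replicate 2). PHO84, the high-affinity phosphate transporter, stood at 44.7, 73.3, 47.1 and 93.9 CPM in WT and at 6.15, 11.9, 5.49 and 5.52 CPM with YFH1 off and fell by 3.21 ± 0.284 (log2); it overlaps an antisense noncoding gene. VTC3 and PHO8 fell by 0.92 (log2) and 1.24. Amino acid permeases rose in 8 of 19 genes with 1 fall, and in 12 with 1 fall without WT replicate 2; DIP5, for dicarboxylic amino acids, was at 144, 9.04, 7.96 and 7.81 CPM in WT and 172, 227, 244 and 229 CPM with YFH1 off, and rose by 2.36 (log2), or by 4.72 without WT replicate 2. PET9 and MIR1, the main carriers of adenine nucleotides and phosphate into mitochondria, fell by 1.26 (log2) and 0.81.

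Several of the largest changes belong to none of these pathways. YMR317W, an uncharacterized gene, stood at 2.53, 2.11, 1.45 and 2.72 CPM in WT and at 1842, 1614, 1423 and 1304 CPM with YFH1 off and rose by 9.44 ± 0.18 (log2). SET4, which encodes a SET-domain protein, stood at 2.19, 1.86, 3.26 and 2.6 CPM in WT and at 75.5, 89.6, 99.8 and 82.9 CPM with YFH1 off and rose by 5.12 ± 0.145 (log2). PBI1 and YIL169C rose by 4.72 ± 0.146 (log2) and 5.06 ± 0.235, from 19.4 and 14 CPM on average. In these 4 genes the WT libraries were all low and no WT library came near a YFH1-off library. The rule that picked the 4 asked for no overlap between the groups. YLR042C, at 15.2, 22.5, 20.3 and 22.3 CPM in WT and at 1.29, 2.76, 2.06 and 1.95 CPM with YFH1 off, was among the 15 largest falls, at -3.32 ± 0.194. Of 9 genes with at most 3 counts in every WT library that were called higher, DAN1 and 7 others are known by a bound only: YHL046W-A was at least 10.4-fold, YDR442W at least 8.76-fold, PAU3 at least 7.03-fold and VBA5 at least 4.89-fold higher. SPO74, YHL037C and PAU4 were at least 1.89-fold, 1.9-fold and 1.45-fold higher; the call of PAU4 was lost in 6 of the 8 fits that leave out 1 library, and that of YHL037C without YFH1-off replicate 5 (fitted log2 fold change 1.66, adjusted p = 0.0506, edgeR). ECM34 stayed at or under 3 counts in both groups, so no fold is given.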

How the data were processed

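Polyadenylated RNA of 16 libraries was sequenced on an Illumina NovaSeq, per the labels' protocols. The authors deposited whole-number counts per gene, which are the values tested here. They also deposited a table of normalized counts, a signal equal to each count divided by a size factor of its library, with adjusted p-values of their own; it was used for gene names only. The submitters' processing notes name FastQC, cutadapt, HISAT2, featureCounts, DESeq2 and the build sacCer3, without versions; strand use and the handling of reads that match several genes are not given in the sources used here. Unassigned columns of values numbered 0.

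The tests were run with edgeR 4.0.16 (glmQLFit, glmQLFTest) and limma 3.58.1 under R 4.3.3. The filter was filterByExpr, which asks for about 1.17 CPM in at least 4 libraries, libraries were scaled by TMM, and the model had 1 coefficient for each of the groups over all 16 libraries, which leaves 12 residual degrees of freedom. P-values were adjusted by Benjamini-Hochberg over the 5876 genes tested, with a threshold of 0.05. SE was derived from the log2 fold change and the root of its F statistic. DESeq2 1.42.0 was run as an alternative. On simulated counts the same fit was checked before use. Since nothing says that replicates came from separate cultures, p-values measure only the spread between these libraries, which may be technical. A floor of 3 counts per library is at most 0.372 CPM in WT, and floors cover counting error only.

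The comparison, the gene lists and the motifs were chosen with earlier results of these data known, so counts over a list describe it and support nothing further. Genes named are YFH1 with its neighbours and the H3 genes, the 15 largest rises and 15 largest falls among genes that passed at a mean log2 CPM of 3 or more with no overlap between groups, members of each list, the 3 largest calls lost without WT replicate 2, and genes with at most 3 counts in every WT library that were called higher. No pairing by the replicate numbers in the titles was seen: the correlation of deviations from the group means between libraries of the same number was -0.27, 0.025, -0.095 and -0.067. The WT mean includes WT replicate 2, whose difference thereby enters the deviations of the other WT libraries. This check therefore cannot decide whether libraries were paired.

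RefSeq's R64 annotation, the same assembly as sacCer3, matched 6008 of 6692 gene identifiers and 5637 of 5876 tested genes, and 5634 of them gave a promoter, the 500 bases before the start codon. Repeated sequence was measured as the share of 50-base words found elsewhere in the genome. One gene of the cluster enzyme list entered its counts but is not reported here by name.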

Additional observations from a re-analysis of the deposited data

Results flagged for a closer look

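The level of each gene given library by library in the text was checked for 1 library far from the other 3 of its group, in 60 genes and 120 groups, where chance alone marks about 1 group in 20 (5%). A library stood apart in 14 groups, and in 12 of them it was WT replicate 2. Some of these genes, such as STR3, were printed because WT replicate 2 changed their result. The 14 groups therefore cannot be weighed against that rate.

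WT replicate 2 was far above the other WT libraries in 10 genes. It was at 144 CPM against 99.1 to 104 CPM for CCP1, at 358 CPM against 40.3 to 42 CPM for CIT2, and at 83.5 CPM against 60.5 to 62.3 CPM for COX6. CYC1 was at 36 CPM there against 24.4 to 25.5 CPM, DIP5 at 144 CPM against 7.81 to 9.04 CPM, and HSP78 at 66.9 CPM against 31 to 35.6 CPM. LEU1 was at 311 CPM against 233 to 236 CPM, MET17 at 686 CPM against 112 to 209 CPM, MET6 at 6427 CPM against 813 to 1389 CPM, and STR3 at 94.2 CPM against 2.9 to 3.28 CPM. The YFH1-off libraries lay below all WT libraries in CCP1, COX6, CYC1, LEU1, MET17 and MET6, above all of them in DIP5 and HSP78, and in CIT2 they lay between WT replicate 2 and the other WT libraries.

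WT replicate 2 was far below the other WT libraries in ENB1, at 92.1 CPM against 109 to 109.6 CPM, and in FRE5, at 1.61 CPM against 6.57 to 7.06 CPM, both genes of iron uptake. Among the YFH1-off libraries, replicate 3 was high for PHO84, at 11.9 CPM against 5.49 to 6.15 CPM, and replicate 2 was low for TIS11, at 751 CPM against 835 to 850.1 CPM. In these 4 genes the groups did not overlap.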

How the results depend on the processing

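Every count of passing genes stayed within 1.5 times the 2909 reported, and so did the 529 at least 2-fold. Leaving out 1 library at a time gave 2671 to 3225 passing genes. DESeq2's size factors gave 2911, no filter on low counts 2914, a minimum of 10 counts in every library 2813, and DESeq2's Wald test 2913, with 12 adjusted p-values not given. Scaling by library size only gave 3020, of which 933 were higher and 2087 lower, and at least 2-fold the split was 234 to 304 in place of 289 to 240. The 8 libraries of both groups without the other 8 gave 2560. With the replicate number as a block in those 8 libraries 2158 genes passed, of which 2144 were among the 2909. No pairing by number was seen, since none of the 4 had its own number as the best correlated partner. WT replicate 2 weighs on that check, which cannot decide whether libraries were paired.

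Of the 529 genes at least 2-fold, 523 passed again without WT replicate 2. The other 6 were STR3, THI13, MPH2, DAK2, YHR173C and PAU4. STR3 reversed: its log2 fold change ran from -2.99 (without WT replicate 5) to 0.48 (without WT replicate 2, adjusted p = 0.159, edgeR), and it lost its call in 5 of the 8 fits that leave out 1 library. Over the 276 genes followed one by one, fits under an alternative gave the same call in 4017 cases, lost the call in 58 and gained one in 22. In 1 case, STR3 without WT replicate 2, a gene called with all libraries changed sign. Genes called in neither fit count among the 4017 even where their sign changed, as for CYC7 (log2 fold change from -0.41 to 0.77). Of the lost calls, those of CIR1, OLE1, POL3, PAU4, THI13 and STR3 made up most. List counts that moved or turned included those of ribosome biogenesis (6 lower with all libraries, 47 without WT replicate 2), sulfur metabolism (9 lower and 2 higher against 7 and 7), glycogen and trehalose, and the proteasome (6 lower and 4 higher against 5 and 7). The majority also turned in at least 1 alternative for the thioredoxin and glutathione, retrograde, glyoxylate, and arginine and glutamate lists. With library size only it turned for the cytosolic ribosomal proteins (17 higher and 21 lower in place of 59 and 4) and for glycolysis. The cause of these shifts was not tested.

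With 4 libraries a group whose separate origin is not given, the p-values cover only the spread between these libraries. Genes under the filter of about 1.17 CPM were not tested, and levels under 0.372 CPM in WT rest on at most 3 counts. Without strand information, overlapping genes such as MET17 and PHO84 with their partners cannot be told apart, nor can reads shared among near-identical copies such as the PAU genes.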

Other observations

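Genes that use fatty acids in peroxisomes were lower on the whole. Of 14 genes of peroxisomal beta-oxidation 8 fell, 3 of them at least 2-fold, and 2 rose, with a median log2 fold change of -0.41 against 0.0087 over all genes, and the counts were the same without WT replicate 2. FAA2, which activates medium-chain fatty acids, fell by 1.27 (log2), and ECI1, an enoyl-CoA isomerase, fell by 1.28. POT1, the thiolase, fell by 1.70 (log2) from a level of only 1.18 CPM on average in WT. FOX2, the multifunctional enzyme of the pathway, rose by 0.28 (log2). In the coenzyme Q list 4 of 11 genes fell and 2 rose, where 25.0% of all genes fell and 24.5% rose. COQ6, a monooxygenase of the pathway, was at -0.78 and COQ4 at 0.46 on the log2 scale.

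Hexose transporter genes differed from one to another. HXT4 fell by 0.72 (log2), and HXT5, known from slow growth, rose by 1.80, from 3.05 to 10.6 CPM on average. In the list of 20 tested genes for hexose transport and its control 8 rose and 6 fell (8 and 7 without WT replicate 2). Over all genes 24.5% rose and 25.0% fell. HXT6 and HXT7 are near-identical copies whose split is uncertain. Among the genes around pyruvate and acetate, ALD6, the cytosolic acetaldehyde dehydrogenase, fell by 1.20 (log2) and ALD4, its mitochondrial counterpart, rose by 0.75. POR1, the main porin of the mitochondrial outer membrane, fell by 0.98 (log2) and its paralog POR2 rose by 0.90.

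Of 7 genes used as auxotrophic markers 5 fell and 0 rose, with or without WT replicate 2. HIS3 stood at 159, 78.7, 72.6 and 61 CPM in WT and at 36.3, 38.3, 42 and 42.6 CPM with YFH1 off, and LEU2 at 113.3, 82, 73.6 and 78.6 CPM in WT and at 45.9, 43.8, 43.1 and 48.6 CPM with YFH1 off. In both genes the groups did not overlap and WT replicate 2 was the highest library, and the log2 fold changes were -1.22 ± 0.248 and -0.94 ± 0.124 with all libraries and -0.82 and -0.78 without that library. The marker alleles of the strains are not given in the sources used here, so that a difference in genotype and a difference in regulation cannot be told apart.

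Genes within 30 kb of a chromosome end made up 289 of the 5637 tested genes placed on the genome (5.13%). They made up 49 of the 278 placed genes that rose at least 2-fold (17.6%) and 18 of the 229 that fell at least 2-fold (7.86%). A gene at the floor in WT enters the test only through other groups and cannot show a fall. These 2 shares are therefore not weighed against each other. By mean expression, 36.0% of the 1176 genes with the lowest levels passed the test, against 50.4% to 54.2% in each of the other 4 bins of 1175 genes. Of 18 transcripts of the mitochondrial genome 6 could be tested and 3 rose, among them COX1 by 1.14 (log2), from 1.65 to 3.53 CPM on average; its call was lost without YFH1-off replicate 5, at 0.90. The libraries were made from polyadenylated RNA and these transcripts were at most 15 CPM on average.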
